A study of Sus scrofa with 9 samples.

Results

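Genes for the transport of bile acids, phospholipid and sterols between the hepatocyte, the blood and the bile, with the gene of the bile acid receptor FXR, were followed in pig liver. The genes were chosen by symbol: SLC10A1, ABCB11, ABCB4, ABCG5, ABCG8, SLC51A, SLC51B and NR1H4. All 8 were among the 29837 symbols of the count table, and 6 of the 8 passed the filter on low counts that left 14100 genes for testing; SLC51A and SLC51B did not pass. Livers of 4 MIDY pigs and 5 wild type (WT) pigs were compared; every animal was a female of 2 years. The MIDY (mutant INS gene-induced diabetes of youth) animals carry an insulin transgene with the C94Y mutation. Diabetic pigs were given short- and long-acting insulin, so the transgene, the diabetes and the insulin treatment cannot be told apart. What drives the transgene, and from how many founders the pigs came, is not given in the sources used here.

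Hepatocytes take conjugated bile acids from portal blood through NTCP, the product of SLC10A1, and pump them into the bile canaliculus through BSEP, the product of ABCB11. ABCB4 moves phosphatidylcholine into bile, and the heterodimer of ABCG5 and ABCG8 secretes cholesterol and plant sterols, so that bile acids leave the liver in mixed micelles. SLC51A and SLC51B form OST, a carrier on the blood-facing side that is known from ileum and that rises in cholestatic liver. FXR (NR1H4) binds bile acids and activates ABCB11, ABCB4 and the SLC51 genes, while the oxysterol receptors LXR (NR1H3 and NR1H2) activate ABCG5 and ABCG8.

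No tested transporter gene, nor NR1H4, passed the test for a difference between MIDY and WT liver, and all 6 had levels that overlapped between the groups. By edgeR's quasi-likelihood test, 0 of the 6 tested genes were called at an adjusted p below 0.05, where 1.17% of all tested genes were called (0.816% higher and 0.355% lower in MIDY). At an unadjusted p below 0.05 the count was also 0 of 6, against 16.1% of all tested genes, and DESeq2 and limma voom called 0 of 6 as well, where they called 4.53% and 1.62% of all. Groups with no overlap in level were seen in 0 of the 6 and in 6.35% of all tested genes. The median log2 fold change was 0.13 over the 6 genes and -0.005 over all tested genes, and 4 of the 6 values lay above 0, as did 49.3% of all. Levels are given as CPM, counts relative to the scaled library size, and are compared between libraries but not between genes, since transcript lengths were not used here.

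**Figure D1:**
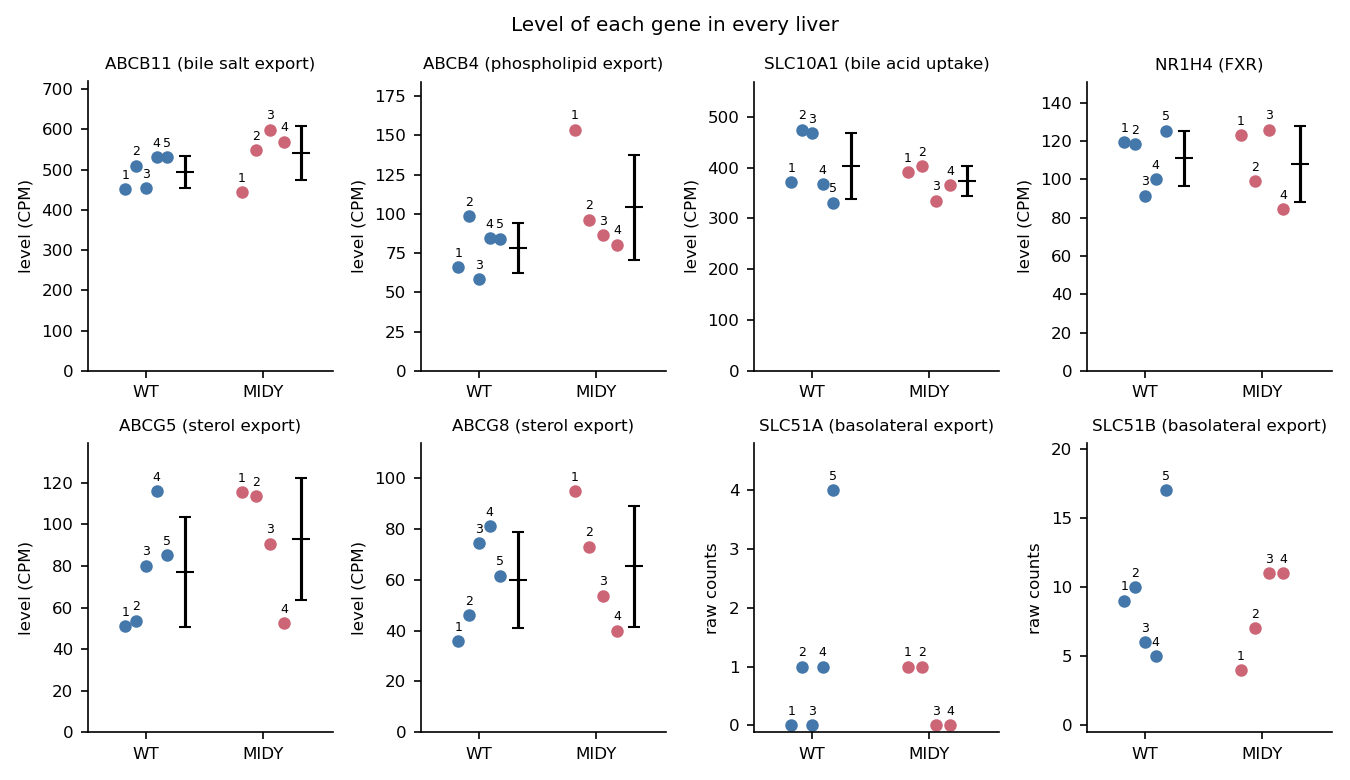
Level in every liver, in CPM for 6 genes and in raw counts for SLC51A and SLC51B; the number beside a point is the replicate, and black bars are the mean and SD of 5 WT or 4 MIDY libraries. WT and MIDY points overlap in every panel.

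Libraries held 14115415 to 19533463 counts, and each was labelled as a separate pig. INS itself had 3 counts over the MIDY and 2 over the WT libraries, too few to check the genotype labels. All 8 hepatocyte markers were detected, with a summed level of 147521 to 177188 CPM in MIDY and 121333 to 176592 CPM in WT, and edgeR, DESeq2 and limma voom called 0 of them, with 0 at an unadjusted p below 0.05. Of the other marker lists, 1 of 8 stellate and fibroblast genes (COL1A2), 1 of 6 tested lymphocyte genes (CD2) and 1 of 3 tested enterocyte and pancreas genes (VIL1) were lower in MIDY by edgeR's test. The other 2 tested enterocyte and pancreas genes had values above 0: APOA4, an apolipoprotein, was at 2.49 log2 with groups that did not overlap (edgeR adjusted p = 0.0851; DESeq2 adjusted p = 0.00145) and CPA1 at 0.69 (edgeR adjusted p = 0.605). That list summed to 247 to 688 CPM in MIDY and 34.0 to 162 CPM in WT, with FABP2, SI and PNLIP at 0 counts in all libraries. APOA4 made up most of the sum, with means of 404 CPM in MIDY and 71.7 CPM in WT. VIL1 had means of 2.91 and 7.75 CPM and CPA1 of 2.20 and 1.38 CPM. DESeq2 called 2 stellate, 1 lymphocyte and 2 enterocyte and pancreas genes (VIL1 lower and APOA4 higher), and limma voom called 1, 0 and 1. With total counts alone the edgeR counts were 0, 0 and 1. Each edgeR count became 0 without MIDY replicate 1, 2 or 3 or WT replicate 2 or 4. The stellate count was also 0 without WT replicate 3 or 5 and 2 (COL1A1 and COL1A2, both lower) without MIDY replicate 4 or WT replicate 1. The lymphocyte count was 0 without MIDY replicate 4 or WT replicate 3. The enterocyte and pancreas count was 0 without WT replicate 5, and without WT replicate 1 it was 2, VIL1 lower and APOA4 higher. Without WT replicates 1 and 2 together the stellate and lymphocyte counts were 0. At an unadjusted edgeR p below 0.05, 5 of 8 stellate and 3 of 6 tested lymphocyte genes were lower in MIDY and 0 higher. The enterocyte and pancreas list had 1 lower and 1 higher. Over all tested genes the share was 16.1%, in either direction. The median log2 fold change was -0.79 for the stellate and -0.78 for the lymphocyte list. Of 8 endothelial, 8 macrophage and 10 cholangiocyte markers edgeR called 0, with 2, 3 and 4 at an unadjusted p below 0.05. Of these, 1 in each list was higher, and 1, 2 and 3 were lower. DESeq2 called 0, 1 and 0. Without MIDY replicate 4 edgeR called 1 cholangiocyte gene, and without WT replicate 1 it called 1 macrophage gene. In bulk liver, fewer cells of a type and less RNA per cell cannot be told apart.

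SLC10A1, the sodium-dependent uptake carrier, lies on chromosome 7 (93400037 to 93421989, Sscrofa11.1). Its level was 391, 403, 334 and 366 CPM in MIDY replicates 1 to 4 and 371, 475, 468, 368 and 331 CPM in WT replicates 1 to 5. WT replicates 2 and 3 were highest, and all 4 MIDY values fell inside the WT range. The means were 374 ± 30.4 CPM (SD, n = 4) in MIDY and 402 ± 64.9 CPM (SD, n = 5) in WT, a log2 fold change of -0.11 ± 0.13 (SE; edgeR adjusted p = 0.736).

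ABCB11, the bile salt export pump, lies on chromosome 15 (75402296 to 75487092). The MIDY livers held 445, 549, 599 and 569 CPM, and the WT livers 451, 509.7, 454, 530.3 and 531 CPM. Of the MIDY values 3 were above the highest WT value and the fourth, replicate 1, was the lowest of all 9 libraries. The log2 fold change was 0.13 ± 0.12 (SE; edgeR adjusted p = 0.637), from 495 ± 39.7 CPM in WT (SD, n = 5) to 541 ± 67.2 CPM in MIDY (SD, n = 4). Without MIDY replicate 1 the value was 0.21 and was not called either (edgeR adjusted p = 0.391).

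ABCB4, the phosphatidylcholine floppase, had the largest fitted difference of the 6 genes. It lies on chromosome 9 (93171371 to 93262124), 24901 bases from ABCB1, a close relative in sequence whose reads could be confused with it. MIDY replicates 1 to 4 had 153, 96.3, 86.3 and 80.3 CPM and WT replicates 1 to 5 had 65.8, 98.4, 58.3, 84.5 and 84.2 CPM. MIDY replicate 1 stood above all other libraries, and the other 3 MIDY values lay within the WT range. The log2 fold change of 0.41 ± 0.20 (SE) was not called (edgeR adjusted p = 0.352; unadjusted p = 0.0682). Without MIDY replicate 1 it was 0.16 (edgeR adjusted p = 0.664). ABCB1 had a log2 fold change of 0.06 ± 0.16 (SE; edgeR adjusted p = 0.897).

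ABCG5 and ABCG8, whose products join to secrete sterols, lie beside each other on chromosome 3, at 96616304 to 96656893 and 96596975 to 96616224, with 79 bases between the annotated spans. ABCG5 was at 116, 113, 90.7 and 52.4 CPM in MIDY replicates 1 to 4, and at 51.1, 53.8, 80.1, 116 and 85.3 CPM in WT replicates 1 to 5. ABCG8 was at 94.7, 72.9, 53.7 and 40.0 CPM in MIDY and at 35.9, 45.9, 74.2, 81.0 and 61.5 CPM in WT. The same 3 livers, WT replicates 1 and 2 and MIDY replicate 4, had the lowest levels of both genes, so low and high animals occurred in each group. The log2 fold change was 0.27 ± 0.29 for ABCG5 and 0.13 ± 0.29 for ABCG8 (SE; edgeR adjusted p = 0.701 and 0.878). The sign of ABCG8 rested on single libraries: it was at -0.11 without MIDY replicate 1 and at -0.016 without WT replicate 1. ABCG5 stayed above 0 when 1 library was left out (0.14 to 0.46). Without WT replicates 1 and 2 together, the lowest WT livers for both genes, ABCG5 was at -0.019 and ABCG8 at -0.15. Leaving out the lowest WT livers lowers these values by construction. DYNC2LI1, which overlaps ABCG5 in the annotation, held 839 counts over all libraries against 12530 for ABCG5 and was not called (log2 fold change 0.52; edgeR adjusted p = 0.169).

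Across the 9 livers ABCG5 and ABCG8 varied together. Pearson's r of log2 CPM was 0.91 (exact permutation p = 0.00138, adjusted p = 0.0385 over the 28 pairs of the 8 genes) and Spearman's rho was 0.87 (exact permutation p = 0.00451, adjusted p = 0.126). Without the 2 livers farthest from the ABCG5 median, MIDY replicate 4 and WT replicate 1, r was 0.82 over 7 livers (exact permutation p = 0.0238) and was no longer called after adjustment (adjusted p = 0.344 over the 15 pairs of tested genes). For deviations from the group means r was 0.92. Values of both genes in a liver come from 1 library and share its scaling, and with total counts as the scaling r was 0.90. It was the only pair of the 28 called. The ratio of ABCG5 to ABCG8 counts in a library was 1.22, 1.56, 1.69 and 1.31 in MIDY and 1.42, 1.17, 1.08, 1.43 and 1.39 in WT. On the log2 scale the ratio was 0.52 ± 0.22 (SD, n = 4) in MIDY and 0.37 ± 0.19 (SD, n = 5) in WT, a difference of 0.15 that did not pass an exact two-sided permutation test (p = 0.294).

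**Figure D2:**
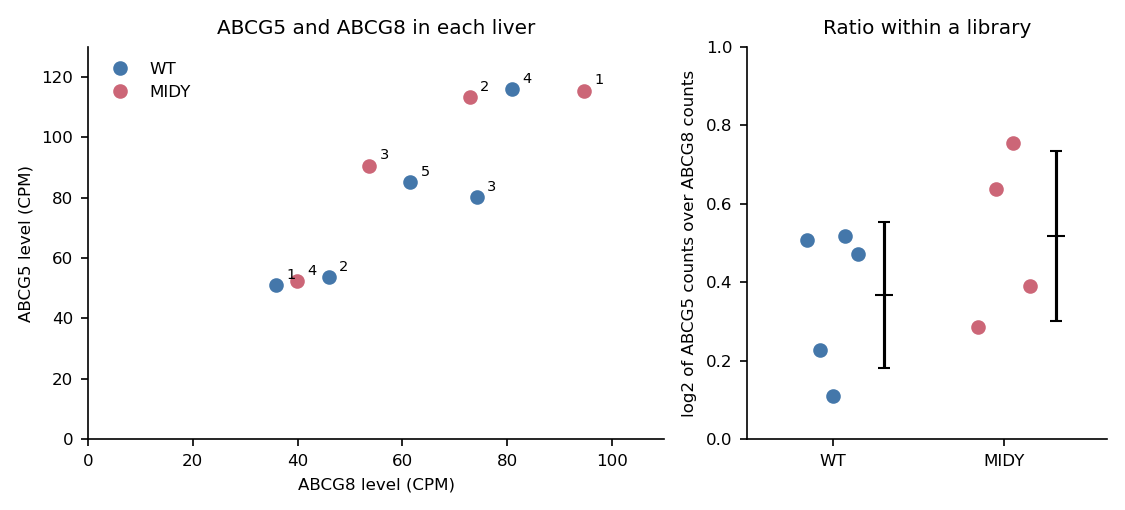
ABCG5 against ABCG8 in CPM for each liver, numbered by replicate (left), and the log2 ratio of their counts with the mean and SD of 5 WT or 4 MIDY libraries (right). The points lie along a line from WT replicate 1 to MIDY replicate 1 with both groups mixed along it.

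These 2 genes also differed most between animals of the same group. The pooled within-group SD of log2 CPM was 0.51 for ABCG5 and 0.51 for ABCG8, larger than in 94.9% and 94.99% of the 9210 tested genes with a mean of at least 5 CPM, whose median was 0.21. It was 0.36 for ABCB4 (larger than in 86.2%), 0.23 for NR1H4 (58.3%), 0.19 for SLC10A1 (41.9%) and 0.15 for ABCB11 (24.1%). The carriers of bile acids themselves, SLC10A1 and ABCB11, had a smaller spread between these pigs than the lipid exporters.

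SLC51A and SLC51B were at or near the limit of detection in both groups. SLC51A, on chromosome 13 (133851775 to 133869753), had raw counts of 1, 1, 0 and 0 in MIDY and 0, 1, 0, 1 and 4 in WT, so 8 of the 9 libraries were below the 3 counts taken as the floor (0.150 to 0.209 CPM). The sums of 2 counts in MIDY and 6 in WT have exact Poisson 95% intervals of 0.242 to 7.22 and 2.20 to 13.1 counts, which cover counting error only. SLC51B, on chromosome 1 (163081145 to 163089491), had 4, 7, 11 and 11 counts in MIDY and 9, 10, 6, 5 and 17 in WT. The SLC51B ranges overlap, and with no low-count filter its log2 fold change was -0.24 ± 0.49 (SE; edgeR adjusted p = 0.871). RASL12 and LOC110261747 overlap SLC51B in the annotation, which makes its few counts uncertain. For SLC51A a fall or a small rise was not detectable at this depth. The upper bound of 7.22 counts comes from the MIDY sum itself, and the MIDY and WT intervals overlap. The 2 intervals therefore give no test of a difference. The 95% interval of the SLC51B value in the fit with no low-count filter was -1.26 to 0.78 on the log2 scale. In that fit a 2-fold rise lay outside the interval and a 2-fold fall inside it. Intervals of other fits that tested SLC51B are not given here. The interval does not cover the uncertainty from the overlapping genes. Bile duct cells also express these genes: the 10 cholangiocyte markers summed to 37.1 to 56.7 CPM in MIDY and 47.9 to 105 CPM in WT, with none at 0, and 9 of 10 log2 fold changes were below 0; their part in the SLC51 counts was not tested.

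NR1H4, which encodes FXR, lies on chromosome 5 (83607222 to 83732668). Its level was 123, 99.2, 125.95 and 84.3 CPM in MIDY and 119.6, 118, 91.6, 100.1 and 125.5 CPM in WT. High and low livers occurred in both groups, at means of 108 ± 19.9 CPM (SD, n = 4) and 111 ± 14.4 CPM (SD, n = 5). The log2 fold change was -0.04 ± 0.14 (SE; edgeR adjusted p = 0.927), and its sign turned to 0.0022 without MIDY replicate 2, to 0.058 without MIDY replicate 4 and to 0.0095 without WT replicate 5. No relation of receptor and pump over the 9 livers passed the test: r of NR1H4 with ABCB11 was -0.13 (exact permutation p = 0.719) and rho -0.03 (exact permutation p = 0.948). The adjusted p was 0.953 and 0.982 over the 28 pairs, and r was 0.25 without MIDY replicate 1 and WT replicate 1, the livers farthest from the ABCB11 median.

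A missed threshold does not show equal levels. As fold changes of MIDY over WT, the 95% intervals, not adjusted for the number of genes, were 0.765 to 1.13 for SLC10A1, 0.918 to 1.30 for ABCB11 and 0.790 to 1.201 for NR1H4. These 3 excluded a 1.5-fold change in either direction, as did the intervals of 48.6% of all tested genes. ABCB4 (0.9753 to 1.81), ABCG5 (0.774 to 1.87) and ABCG8 (0.700 to 1.71) did not exclude a 1.5-fold rise, and none of the 6 reached a 2-fold change, which held for 77.3% of tested genes. The ABCG5 interval reached past 2-fold without MIDY replicate 3 or 4 or WT replicate 3, 4 or 5, each left out alone.

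**Figure D3:**
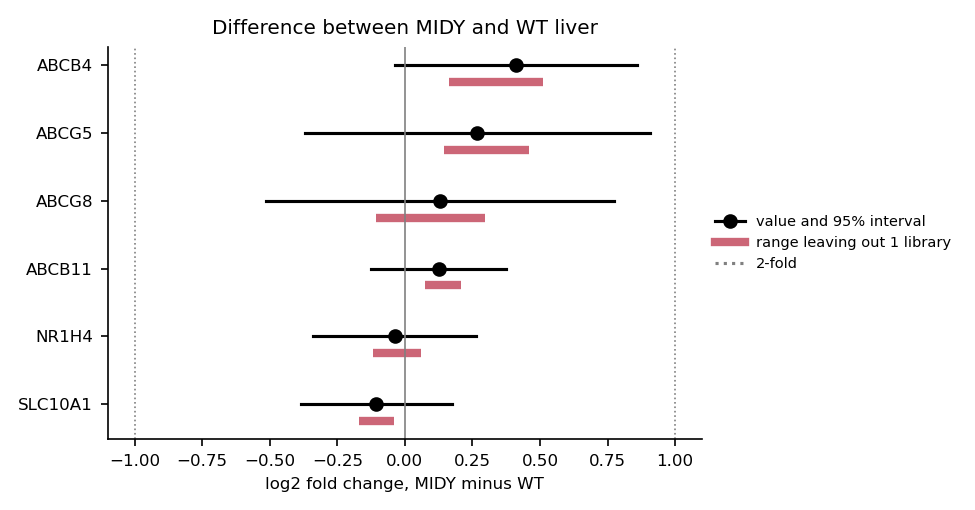
Log2 fold change of MIDY over WT for the 6 tested genes with its 95% interval (black) and the range over the 9 fits that each left out 1 library (red). All 6 intervals include 0 and stay inside the dotted 2-fold lines.

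Other carriers of bile acids and organic anions were compared from a list of 16, of which 13 were tested. EdgeR called 0 of 13, with 3 higher and 1 lower at an unadjusted p below 0.05, limma voom called 0 and DESeq2 called 2. For this and the later lists, the shares of all tested genes called were 1.17% by edgeR, 1.62% by limma voom and 4.53% by DESeq2. At an unadjusted edgeR p below 0.05 the share was 16.1%. With so low a share called by edgeR, 0 calls do not set a short list apart. SLC22A7, the organic anion transporter OAT2, was at 48.9, 24.0, 49.0 and 51.0 CPM in MIDY and 99.5, 90.5, 82.3, 61.6 and 84.4 CPM in WT. Its groups did not overlap, and it missed edgeR's threshold (log2 fold change -0.95 ± 0.21 SE; edgeR adjusted p = 0.0571; DESeq2 adjusted p = 0.00118). SLCO1A2, a sodium-independent bile acid carrier, was at 121 to 248 CPM in MIDY and 74.8 to 145 CPM in WT (0.68 ± 0.21 log2, SE; edgeR adjusted p = 0.154; DESeq2 adjusted p = 0.0483). ABCC6 had a log2 fold change of 0.32 and TMEM30A, the partner of the canalicular flippase ATP8B1, of 0.30 (edgeR adjusted p = 0.161 and 0.285).

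Partners and regulators of FXR were compared next. Of 18 listed genes 17 were tested and edgeR called 0, with 1 higher and 2 lower at an unadjusted p below 0.05; DESeq2 and limma voom called 0. The LXR genes leaned in opposite directions, with log2 fold changes of 0.35 for NR1H2 (LXR beta) and -0.26 for NR1H3 (LXR alpha) at edgeR adjusted p = 0.155 and 0.259. FGFR4, the hepatocyte receptor of the ileal hormone FGF19, was at -0.26 and NR1I2, the xenobiotic receptor PXR, at -0.24 (log2; edgeR adjusted p = 0.283 and 0.315). Levels of NR1H2 and FGFR4 did not overlap between the groups, which held for 6.35% of all tested genes, while those of NR1H3 and NR1I2 did. Of 13 other FXR target genes 11 were tested and edgeR, DESeq2 and limma voom called 0, with 1 higher at an unadjusted p below 0.05. NR0B2, which encodes the repressor SHP and is the best known FXR target in liver, was at 10.7, 8.19, 1.95 and 2.83 CPM in MIDY and 8.76, 5.80, 4.35, 3.53 and 8.19 CPM in WT. The groups overlapped, and its log2 fold change was -0.06 ± 0.49 (SE; edgeR adjusted p = 0.970). INSIG2, a brake on sterol synthesis, had the lowest p of these targets (0.52 log2; edgeR adjusted p = 0.144), followed by SDC1 (-0.26), SLCO1B3 (-0.23) and APOC2 (0.21). FGF19 had 0 counts in all libraries.

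Of 15 other sterol transport and uptake genes, all tested, edgeR, DESeq2 and limma voom called 0. At an unadjusted edgeR p below 0.05, 4 were lower and 0 higher, where 16.1% of all tested genes passed in either direction. These 4 were ABCG1 (-0.60), SCARB1 (-0.34), MYLIP (-0.39) and ABCA1 (-0.47 log2; edgeR adjusted p from 0.153 to 0.302). ABCA1 and ABCG1 export cholesterol to lipoproteins, and SCARB1 takes up HDL cholesterol. ABCA1, ABCG1 and MYLIP are, like ABCG5 and ABCG8, LXR targets; the fitted values of the former lay below 0 and those of ABCG5 and ABCG8 above 0, with no gene called and the difference not tested. NPC1L1, which returns cholesterol from bile and was named here after its values were seen, was at 49.9, 53.4, 24.9 and 30.6 CPM in MIDY and 15.02, 44.0, 10.2, 14.3 and 22.8 CPM in WT (0.89 ± 0.43 log2, SE; edgeR adjusted p = 0.357).

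Among 10 tested bile acid synthesis enzymes of 12 listed, CYP8B1, the sterol 12-hydroxylase, was the only called gene. It was at 5.66 to 33.5 CPM in MIDY and 0 to 0.400 CPM in WT (6.12 ± 0.80 log2, SE; edgeR adjusted p = 0.0146). The WT libraries held 16 CYP8B1 counts in all, near the floor of 3 counts a library, so the size of this difference is uncertain. EdgeR called CYP8B1 in all 9 fits that each left out 1 library. Without WT replicates 1 and 2 together edgeR's adjusted p for CYP8B1 was 0.0597. ACOX2, an oxidase of side chain shortening, was at 293 ± 18.3 CPM in MIDY (SD, n = 4) and 203 ± 39.1 CPM in WT (SD, n = 5), with groups that did not overlap, and missed edgeR's threshold (0.53 ± 0.13 log2, SE; edgeR adjusted p = 0.0798). DESeq2 and limma voom each called both CYP8B1 and ACOX2 (ACOX2 adjusted p = 0.0119 and 0.0489), and edgeR called ACOX2 without WT replicate 1 (adjusted p = 0.0238) and without WT replicates 1 and 2 together (adjusted p = 0.0484). SCP2 (0.31) and AMACR (-0.52 log2), also of side chain shortening, were not called by any of these tools (edgeR adjusted p = 0.204 and 0.223). The groups did not overlap for SCP2 and did for AMACR. The median log2 fold change was 0.06 for the carriers, 0.05 for the regulators, -0.06 for the FXR targets, 0.13 for the synthesis enzymes and -0.13 for the sterol genes. NR0B2, SLCO1B3, ABCC2 and SLC27A5 are each in more than 1 of these lists.

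**Figure D4:**
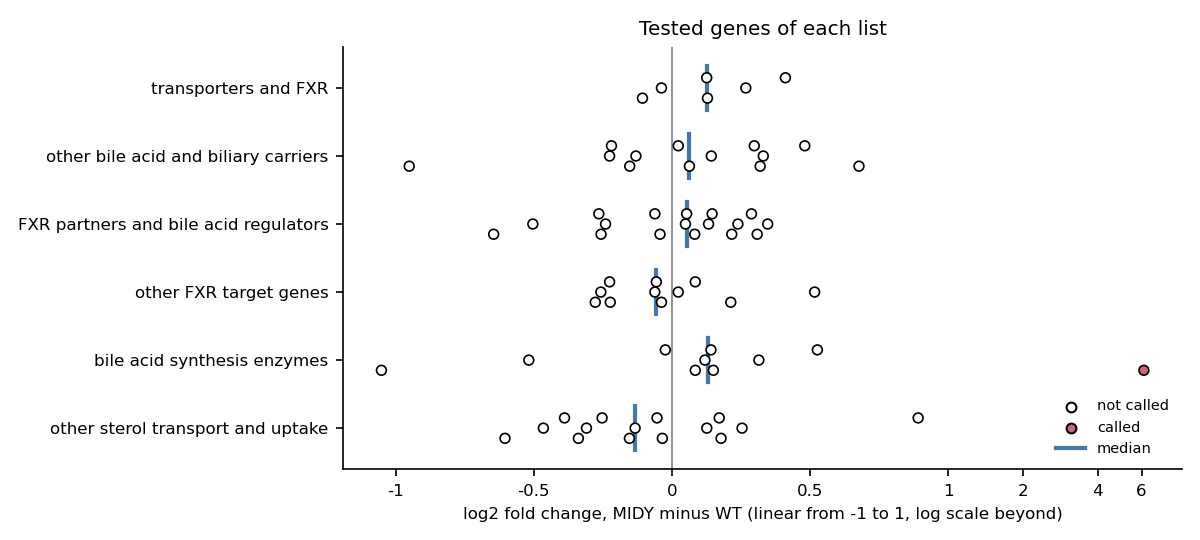
Log2 fold change of MIDY over WT for each tested gene of the transporter and FXR set and of the 5 pathway lists; each circle is a gene, filled where edgeR called it, and the blue line is the median of the list. CYP8B1 at 6.12 is the only filled circle, and the axis is linear from -1 to 1 and logarithmic beyond.

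The genes most alike in pattern were taken from 8635 candidates by r of log2 CPM over the 9 livers. They are a description, since they were picked as the highest r. For ABCB11 they were TRIM4 (0.93), FPGT (0.92) and CEP135 (0.91), and for SLC10A1 they were POP7 (0.99), TMEM50A (0.94) and SNRNP35 (0.93). For ABCB4 they were VCP (0.96), CDADC1 (0.94) and AMMECR1L (0.94), and for NR1H4 they were TIPRL (0.97), PIGN (0.92) and PUS3 (0.91). ABCG8 ranked second for ABCG5, after TAF7 (0.96) and before CDK2AP2 (0.89). ABCG5 ranked second for ABCG8, after RER1 (0.92) and before EIF3B (0.91). For SLC51A they were CYFIP2 (0.87), MLIP (0.86) and PLEK (0.85) and for SLC51B UPF2 (0.93), ARHGAP26 (0.92) and STX17 (0.91), which rest on 0 to 4 and 4 to 17 counts in a library. Apart from ABCG5 and ABCG8, none of the 6 tested genes was among the 3 genes most like another of the 8. SLC51A and SLC51B could not appear, since the candidates were tested genes with a mean of at least 5 CPM.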

How the data were processed

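RNA was measured in 9 pig livers. Per the labels' protocols, it was isolated with Trizol, depleted of ribosomal RNA and made into libraries with the Nugen Encore kit. The deposited values are raw counts, 1 row per symbol and 1 column per liver; STAR, HTSeq, DESeq2 and Sscrofa11.1 are named in the submitters' processing notes. The strand setting of the counting is not given in the sources used here, so overlapping genes are uncertain. Positions come from the RefSeq gene table of Sscrofa11.1, which matched all 29837 symbols. No sequences were used.

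Counts were filtered with filterByExpr, scaled with TMM and fitted with edgeR 4.0.16 (R 4.3.3; robust quasi-likelihood, Benjamini-Hochberg over 14100 genes, called below 0.05). The SE is the log2 fold change over the square root of F. Log2 CPM and count ratios used a prior count of 2. Libraries held 14115415 to 19533463 counts. The fit was tested on simulated data with known changes. Alternatives were other scalings and filters, DESeq2 1.42.0, limma voom 3.58.1, sva 3.50.0 and leaving out libraries. Permutation tests were two-sided and enumerated every arrangement in numpy 2.4.6.

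All 8 genes of the set, the called genes and the 4 lowest p of each pathway list, overlapping genes and the 3 most alike genes were named, and the SLC51A to SLC51B ratio is not given. The genes, lists, tests and alternatives were chosen with earlier results of these data known. Single values of 1 listed gene are not reported here. No library pair matched within sampling noise.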

Additional observations from a re-analysis of the deposited data

Results flagged for a closer look

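In 5 of 34 sets of values, each 1 gene or ratio in 1 group, the highest or lowest library lay far from the others by Dixon's test at 95%. Some of these genes were named after their values were seen, so the count cannot be set against a chance rate. SLC51A in WT replicate 5 was at 0.226 CPM, or 4 counts, against 0 to 0.0630 CPM in the other WT libraries. WT replicate 2 was the highest WT library for CYP7A1, the rate-limiting enzyme of bile acid synthesis (524 CPM against 39.3 to 107), and for KLB, the co-receptor of FGFR4 (189 CPM against 48.2 to 88.4). CYP8B1 was at 33.5 CPM in MIDY replicate 1 and at 5.66 to 9.72 CPM in the other MIDY libraries. SLC22A7 was at 24.0 CPM in MIDY replicate 2 and at 48.9 to 51.0 CPM in the other MIDY libraries.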

How the results depend on the processing

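In each of the 18 alternatives edgeR, DESeq2 or limma voom called 0 of the genes tested: the same 6 in all 18, with SLC51A tested in 1 and SLC51B in 6. The log2 fold changes of ABCB11, ABCB4 and SLC10A1 kept their sign in all 18. ABCG5 turned to -0.019 and ABCG8 to -0.15 without WT replicates 1 and 2 together, and NR1H4 turned to 0.026. WT replicates 1 and 2 were the lowest WT livers for ABCG5 and ABCG8, so both values fall by construction there. Leaving out 1 library gave -0.11 to 0.30 for ABCG8 (below 0 without MIDY replicate 1 or WT replicate 1, the latter -0.016) and -0.12 to 0.058 for NR1H4 (0.0022 without MIDY replicate 2, 0.058 without MIDY replicate 4 and 0.0095 without WT replicate 5). The cause was not tested. Over all genes 165 were called (69.7% higher), 639 by DESeq2 (55.6% higher), 66 without WT replicates 1 and 2 together and 38 to 259 when 1 library was left out: 38 and 53 without MIDY replicates 2 and 3, and 259, 59, 81, 80 and 60 without WT replicates 1 to 5. With total counts alone 148 were called (77.0% higher). The correlation of NR1H4 and ABCB11 was 0.20 with total counts alone and 0.25 without the 2 farthest libraries, where 0 pairs were called (7 livers a pair in place of 9). No paired analysis was possible because the labels give no replicate numbers shared between the groups. SLC51A and SLC51B are limited by depth.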

Other observations

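WT replicate 2 had the highest CYP7A1, KLB and SLC10A1 levels of the 9 livers, and its ABCG5 and ABCG8 levels, 53.8 and 45.9 CPM, were among the lowest 3. Its ABCA1 level, 259 CPM, was the highest of the 9. CYP7A1 was at 114, 92.9, 26.7 and 70.6 CPM in MIDY and at 103, 524, 63.0, 39.3 and 107 CPM in WT, a log2 fold change of -1.14 ± 0.84 (SE; edgeR adjusted p = 0.556). KLB was at 51.4 to 65.7 CPM in MIDY and 48.2 to 189 CPM in WT (edgeR adjusted p = 0.463). These libraries and genes were singled out after their values were seen.

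Of the livers low in ABCG5 and ABCG8, WT replicate 2 was the one with high CYP7A1: WT replicate 1 had 103 CPM and MIDY replicate 4 had 70.6 CPM.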
